A study of Mus musculus with 4 samples.

Results

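The genes described are the 4 signalling chains of the CD3 complex (Cd3d, Cd3e, Cd3g and Cd247), the related chain gene Fcer1g, and 5 genes of the first steps of T-cell receptor signalling (Lck, Zap70, Txk, Lat and Themis). They were chosen by name, with earlier results of these data known, and are 10 of the 31053 genes counted in the series. T cells of the meninges and of the choroid plexus of female C57BL/6 mice, either 10 weeks of age (young) or 18 months of age (aged), were sorted as CD4 and CD8 T cells by flow cytometry and profiled with 5′ single-cell RNA sequencing. A library was made for each age and tissue, 4 in all, from the pooled cells of 5 mice. The mice of a library cannot be told apart, conditions could not be tested, and p-values are therefore absent.

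The T-cell receptor has no signalling tail of its own. It leaves the signal to the CD3 gamma, delta and epsilon chains and to the CD3 zeta dimer encoded by Cd247, whose tyrosine motifs are phosphorylated by the kinase Lck and then bound by the kinase Zap70. Zap70 phosphorylates the membrane adaptor Lat, on which the downstream signalling complex assembles, while Themis tunes the strength of the early signal and Txk is a kinase of the Tec family. The Fc receptor gamma chain encoded by Fcer1g is related to CD3 zeta, serves Fc receptors of myeloid and natural killer cells, and can pair with the receptors of some innate-like T cells.

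Cells within the study's limits on detected genes and mitochondrial reads numbered 1035 in the young meninges library, 631 in the young choroid plexus, 1436 in the aged meninges and 1106 in the aged choroid plexus, the order kept below where only numbers are listed. Of these, 43 were removed as likely doublets, and 77 held no unique molecular identifier (UMI, 1 counted transcript molecule) of a T-cell receptor gene. The 4088 cells left were taken as T cells, a gate that uses none of the 10 genes. All but 29 of them held a UMI of at least 1 of the 3 CD3 chains outside zeta, and 8 cell barcodes occurred in more than 1 library. The class of a T cell was read from its coreceptor UMIs. Those with Cd4 alone are called CD4 (1004 cells), those with Cd8a, Cd8b1 or both but without Cd4 are called CD8 (1159 cells), and those without any of the 3 are called neither (1828 cells), while 97 cells with UMIs of both coreceptors were left out. Since every cell passed a CD4 or CD8 sort, the last class holds cells whose coreceptor transcript was not caught at this depth as well as any that lack it. With 2 UMIs asked for a call, 71 of 255 CD4 and 222 of 254 CD8 T cells of young meninges remained. In young choroid plexus 33 of 160 and 130 of 157 remained, in aged meninges 90 of 362 and 240 of 280, and in aged choroid plexus 61 of 227 and 412 of 468. How many neither T cells are missed CD4 or missed CD8 T cells was not tested. Median depth in the resulting 12 pools lay between 2078.5 UMIs per cell (aged meninges, neither) and 3645 (young meninges, CD8). Marker genes of other cell types were summed in each pool. The 3 neutrophil genes had no UMI in any pool, the 5 mast cell genes summed to at most 1.58 counts per 1000000 UMIs (CPM) and the 5 fibroblast genes to at most 1.16. The 7 macrophage genes summed to 0 to 200 CPM, the 5 natural killer genes to 0 to 54.5 and the 5 gamma-delta genes to 5.93 to 182. The 5 B cell genes summed to 65.5 to 263 CPM and the 4 erythroid genes to 0 to 9815, the highest in aged meninges neither T cells. The part of these cells in the results was not tested unless a value is given.

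Levels are summed UMIs of a pool in CPM, with an exact Poisson 95% interval that covers counting error only and not variation between cells or between mice. These levels are not per transcript length, so they are compared between pools and not between genes. Ratios are log2 ratios of CPM + 10. A gene passed the rule of size when its log2 ratio was at least 0.5 in either direction and the exact 95% interval of the ratio of its counts excluded 1, among genes with at least 20 UMIs over both pools. The words higher and lower are used for passing values, and values are given otherwise. In pools of cells, fewer cells with a transcript and fewer transcripts per cell cannot be told apart.

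Cells with a Ccr7 UMI made up 47.8 to 64.2% of the cells in the 6 young pools and 8.57 to 11.5% in the 6 aged pools. Ccr7 encodes a homing receptor of naive and central memory T cells. This shift went along with every comparison of ages below.

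**Figure D1:**
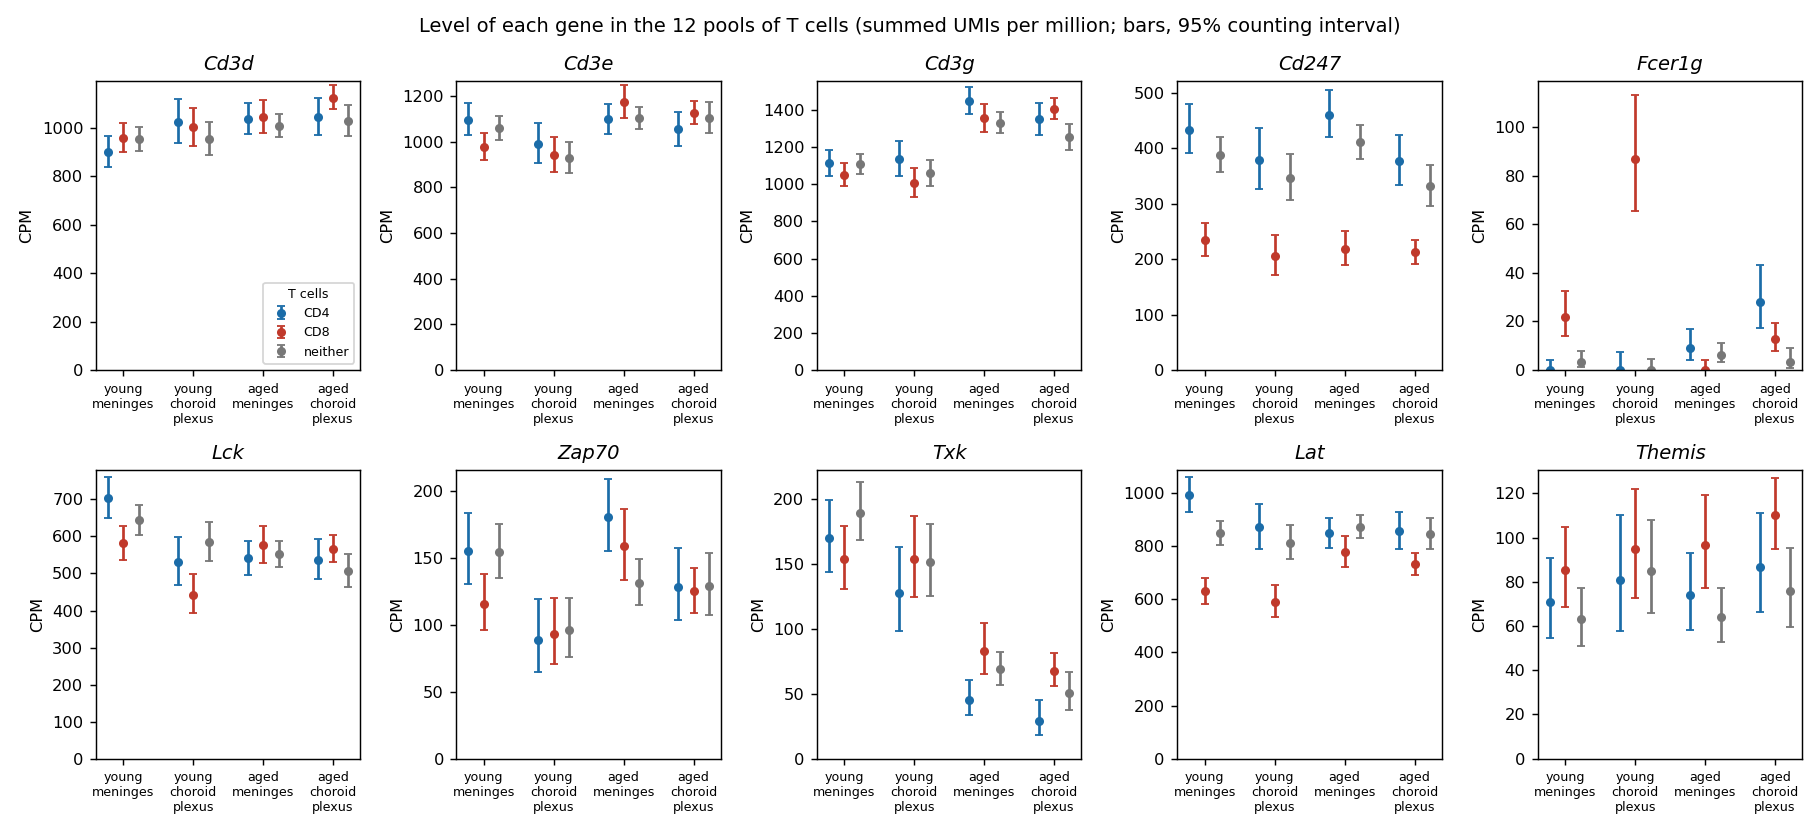
Level of each of the 10 genes (vertical axis, CPM) in the 4 libraries (horizontal axis), with CD4 T cells in blue, CD8 in red and neither in grey. Bars are 95% counting intervals. Txk stood at 128 to 189 CPM in the young and 29.3 to 83.3 in the aged pools, and Cd247 at 206 to 235 in the CD8 and 332 to 461 in the other pools.

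Among the 10 genes, the point values of Txk and Cd3g separated the ages, and those of Cd247 and Lat separated CD8 T cells from the others. Cd3d, Cd3e and Cd3g were within 1.44-fold over all 12 pools. Txk spanned 6.46-fold, Cd247 2.24-fold, Zap70 2.03-fold, Themis 1.74-fold, Lat 1.68-fold, Lck 1.59-fold, Cd3g 1.44-fold, Cd3e 1.26-fold and Cd3d 1.25-fold. Fcer1g was at 0 in 4 pools and reached 87.0 CPM in another. When pools were put in order of level, neighbours with intervals that did not overlap were found at 2 of 11 steps for Lat, at 1 for Cd247 and at 1 for Fcer1g, and at none for the other 7 genes. At the other steps the intervals overlap, which leaves the order of neighbouring pools undecided. Overlap does not by itself place a difference within counting error.

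Cd3d and Cd3e encode the delta and epsilon chains. Cd3d ranged from 901 CPM in young meninges CD4 T cells to 1126 in aged choroid plexus CD8 T cells. Its log2 ratio of aged over young lay between 0.02 and 0.20 in the 6 comparisons of a tissue and class. For Cd3e the range was from 931 CPM in young choroid plexus neither T cells to 1175 in aged meninges CD8 T cells, and the log2 ratios with age were 0.00 to 0.26. Neither gene passed the rule of size in any comparison of age, class or tissue.

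Cd3g encodes the gamma chain. In young meninges it had 1112 CPM in CD4, 1050 in CD8 and 1107 in neither T cells. In young choroid plexus these levels were 1136, 1008 and 1058 CPM. In aged meninges they were 1450, 1356 and 1331 CPM, and in aged choroid plexus 1351, 1405 and 1253. All 6 aged pools thus lay above all 6 young pools, and how many of all genes did so was not counted. Over all tested genes, the median log2 ratio with age was 0.03 to 0.11 in the 6 comparisons. The log2 ratios of Cd3g with age were 0.24 to 0.48, each with an interval that excluded 1, and none reached the rule of size. Under normalization by trimmed means (TMM), which compares pools after weighting down extreme genes, the 6 ratios were 0.10 to 0.38 and 4 of the intervals excluded 1. The same number of intervals excluded 1 when ribosomal protein, mitochondrial and receptor genes were left out of the total. With either of these scalings, log2 ratios of Cd3d and Cd3e with age fell on either side of 0. With the mean of each cell's CPM, the ratios of Cd3g were 0.30 to 0.56, and 1 of 6 passed the rule of size. At 1000 UMIs drawn from each cell they were 0.25 to 0.67, and 1 of 6 passed.

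The share of Cd3g among the UMIs of the 3 CD3 genes does not depend on scaling. It was 35.7% (95% exact binomial interval 34.0 to 37.6) in young meninges CD4 T cells and 40.4% (38.8 to 42.0) in aged meninges CD4 T cells. In CD8 T cells of the choroid plexus it was 34.1% (32.0 to 36.3) in young and 38.4% (37.2 to 39.6) in aged mice. Over all pools the share was 34.1 to 36.0% in the young and 37.0 to 40.4% in the aged. The 6 young and 6 aged point values did not overlap, but the intervals did in 3 of the 6 pairs of a tissue and class: meningeal CD8, choroid plexus CD4 and choroid plexus neither T cells. Such an overlap does not by itself place a difference of shares within counting error, and the differences were not tested. The level moved with cell state as well. Cd3g had a larger value in cells without than with a Ccr7 UMI in 11 of 12 pools, past the rule of size in 4. The same direction was seen for Cd3e and Zap70 in 12 of 12 pools each and for Cd3d in 8 of 12. They passed as higher in 1, 2 and 1 pools. Of all genes tested, 16.1, 11.2 and 17.5% passed between these states in CD4, CD8 and neither T cells of young meninges, 8.83, 16.1 and 10.8% in young choroid plexus, 6.79, 11.7 and 8.48% in aged meninges and 6.12, 6.71 and 6.66% in aged choroid plexus. Within cells without a Ccr7 UMI, the log2 ratio of Cd3g with age was -0.03 to 0.37 and its interval excluded 1 in 5 of 6 comparisons. Within cells with a Ccr7 UMI it was -0.39 to 0.32, and 1 interval excluded 1 on either side. A split added after the values were seen took cells with a UMI of S100a4, a gene of memory-type T cells, and none of Ccr7. There the log2 ratio of Cd3g with age was -0.29 to 0.44 and positive in 5 of 6 comparisons. Again 1 interval excluded 1 on either side, and none passed the rule of size.

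The 3 CD3 genes lie close together on chromosome 9. On GRCm38, with the GENCODE vM21 annotation, Cd3g (ENSMUSG00000002033) spans chr9:44969572-44980431 on the minus strand and Cd3d (ENSMUSG00000032094) chr9:44981786-44987339 on the plus strand. Their annotated starts are 1355 bp apart and point away from each other. Cd3e (ENSMUSG00000032093) follows at chr9:44998740-45009627 on the minus strand and overlaps the annotated genes Gm48719 on the opposite and Gm48720 on the same strand. Whether counting used the strand is not given in the sources used here, so the split of reads between Cd3e and its overlapping genes is uncertain. The promoters of the divergent pair are shown because these genes share one locus while the share of Cd3g differed with age. The sequences are those of RefSeq on GRCm38.p6, from 250 bases before to 50 after the gene's start, with the core GGAA of binding sites of ETS factors, or TTCC where it lies on the other strand, in capitals. Cd3g lies at chr9:44980382-44980681 on the minus strand and Cd3d at chr9:44981536-44981835 on the plus strand.
Cd3g promoter: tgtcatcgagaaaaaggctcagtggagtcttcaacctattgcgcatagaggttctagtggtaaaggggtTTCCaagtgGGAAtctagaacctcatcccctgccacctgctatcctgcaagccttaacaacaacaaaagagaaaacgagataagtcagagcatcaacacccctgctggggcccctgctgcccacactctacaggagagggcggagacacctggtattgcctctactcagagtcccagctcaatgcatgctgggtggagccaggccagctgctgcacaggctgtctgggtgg
Cd3d promoter: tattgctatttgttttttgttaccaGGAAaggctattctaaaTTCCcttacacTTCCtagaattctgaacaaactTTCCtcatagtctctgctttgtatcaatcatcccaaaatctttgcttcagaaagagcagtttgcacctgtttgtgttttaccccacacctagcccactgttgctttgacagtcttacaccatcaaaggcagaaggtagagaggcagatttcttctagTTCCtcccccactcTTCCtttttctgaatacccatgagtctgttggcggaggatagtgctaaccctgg
The Cd3g promoter held the ETS core 2 times and the Cd3d promoter 6 times. Of all 32851 promoters of this length, 84.6% and 15.7% held it at least as often. The letters CTTTGA of TCF and LEF factors, searched on both strands, occurred 2 times in the Cd3d promoter and not in that of Cd3g, and 16.0% of all promoters held them at least 1 time and 1.73% at least 2 times. The Cd3g promoter held CACCC, the core of KLF factor sites, 3 times and the E box CANNTG 4 times, and 9.35% and 6.49% of all promoters held them at least as often. Matches of different motifs were counted separately, also where they overlap. A match is a description of letters only.

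Cd247 encodes CD3 zeta, the chain with the most tyrosine motifs of the receptor. In young meninges its level was 434 CPM in CD4, 235 in CD8 and 388 in neither T cells. In young choroid plexus it was 379, 206 and 346 CPM. Aged meninges had 461, 219 and 411 CPM, and aged choroid plexus 377, 213 and 332. All 4 CD8 pools lay below all 8 other pools. Of all genes tested, 11.3, 9.89, 12.8 and 11.8% passed the rule of size between CD8 and CD4 T cells of the 4 libraries. Cd247 was lower in CD8 than in CD4 T cells in each of the 4 libraries, with log2 ratios of -0.86 in young meninges, -0.85 in young choroid plexus, -1.04 in aged meninges and -0.80 in aged choroid plexus. The 95% interval of the ratio was 0.460 to 0.637 in young meninges and 0.399 to 0.561 in aged meninges.

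The lower Cd247 of CD8 T cells was also seen at equal depth and within cell states. At 1000 UMIs drawn from each cell, a Cd247 UMI was seen in 32.3% (95% exact interval 26.6 to 38.4) of young meninges CD4 and in 21.7% (16.7 to 27.2) of young meninges CD8 T cells, against 71.8% and 60.2% at full depth, where the median depths were 3214 and 3645 UMIs. In aged choroid plexus the thinned shares were 32.7% (26.7 to 39.3) and 18.4% (15.0 to 22.3). The log2 ratio of CD8 over CD4 was -0.53 to -1.13 among cells with a Ccr7 UMI, -0.45 to -1.09 among cells without one, and -0.52 to -1.44 among cells with a UMI of S100a4, a gene of memory-type T cells, and none of Ccr7. It passed the rule of size in 3, 3 and 4 of the 4 libraries. The background was 9.58, 9.24, 19.6 and 8.04% with a Ccr7 UMI, 11.5, 10.4, 12.2 and 12.2% without one, and 14.7, 9.83, 10.8 and 10.3% in the S100a4 cells, a split added after the values were seen. Cells with a UMI of a gamma-delta gene made up 33.1% of aged choroid plexus CD8 T cells and 1.76% of its CD4 T cells. Without them the ratio in that library was -0.69. With age the log2 ratios of Cd247 were -0.10 to 0.09, and every interval included 1. Of the 3 CD3 genes and Cd247 together, Cd247 supplied 5.49 to 7.28% of UMIs in CD8 and 8.91 to 12.2% in the other pools. Cd247 (ENSMUSG00000005763, chr1:165788681-165877277, plus strand) overlaps the annotated gene Gm16565 on the same strand. It also overlaps Pou2f1 and 4 further annotated genes on the opposite strand, with the same uncertainty as for Cd3e.

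The 3 genes whose level over the 12 pools was most like that of Cd247 were Sgms1 (Pearson r = 0.977 of log2 CPM + 10), Cd40lg (0.974) and Cd5 (0.967), among 5932 genes. Cd40lg encodes a ligand of CD4 helper T cells and Cd5 a receptor that dampens T-cell receptor signalling. The pools share libraries, so these values are descriptions without a p.

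Fcer1g was rare. It had 148 UMIs in 27 of 3991 T cells, 16 of them CD8. The share of cells with an Fcer1g UMI at full depth was 3.82% of young choroid plexus CD8 T cells (6 of 157), 1.57% of young meninges CD8 (4 of 254), 1.28% of aged choroid plexus CD8 (6 of 468) and 0 of 280 aged meninges CD8 T cells, which allows a share of up to 1.07% by 3 counts of the total (exact upper limit 1.31%). In CD4 T cells with a Ccr7 UMI, taken as cells that should lack the gene, it was found in 0 of 146, 0 of 99, 0 of 35 and 0 of 26 cells of the 4 libraries, which allow shares of up to 2.05, 3.03, 8.57 and 11.5% by the same rule (exact upper limits 2.49, 3.66, 10.0 and 13.2%). The shares in CD8 T cells of young meninges and aged choroid plexus lie under these limits. Median depth was 3460 UMIs in young choroid plexus CD8 T cells and 2869 in the CD4 T cells with a Ccr7 UMI of that library.

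**Figure D2:**
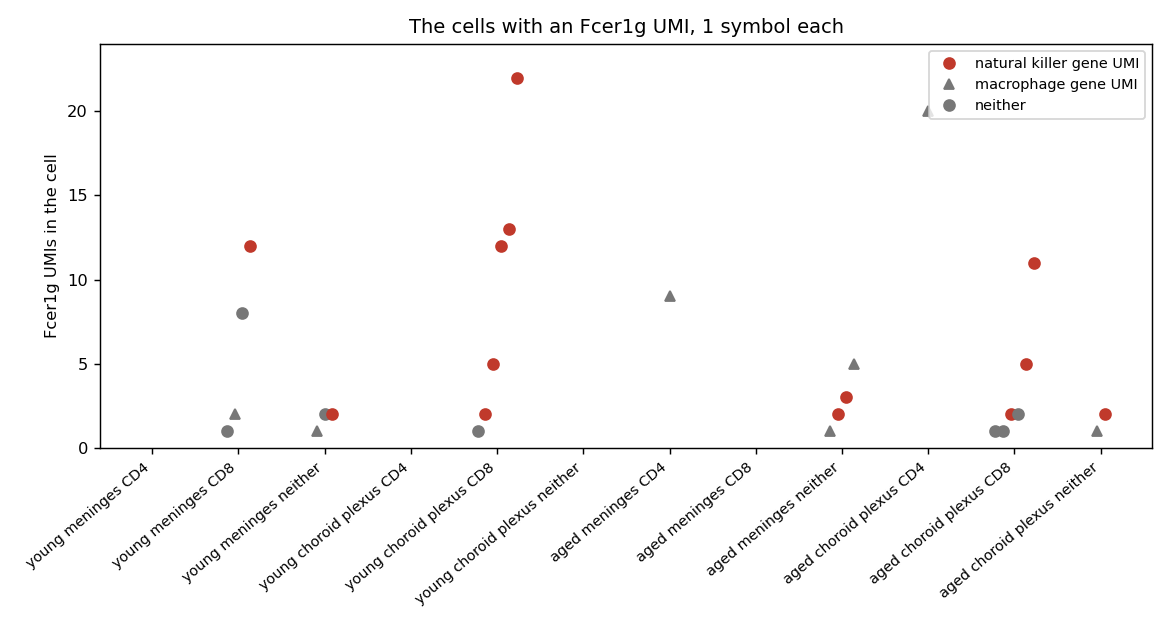
Each symbol is 1 of the 27 T cells with an Fcer1g UMI, placed by pool (horizontal axis) and by its number of Fcer1g UMIs (vertical axis). Red marks cells with a natural killer gene UMI, and triangles cells with a macrophage gene UMI. The cells with 13 and 22 UMIs are young choroid plexus CD8 T cells, and the cell with 20 is an aged choroid plexus CD4 T cell.

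The 55 UMIs of young choroid plexus CD8 T cells came from 6 cells with 22, 13, 12, 5, 2 and 1 UMIs, a level of 87.0 CPM (65.6 to 113) and at least 14.3-fold higher than in CD4 T cells of that library, which had none. This bound takes the CD8 level as measured and sets 3 UMIs in the CD4 pool, and the exact interval of the ratio starts at 11.3-fold. Without the cell of 22 UMIs the level was 52.5 CPM. Over all pools, at least 5 UMIs were found in 11 T cells, of which 8 were CD8 and 7 had a UMI of a natural killer gene. In young meninges the CD8 level was 21.8 CPM (13.8 to 32.7) from 4 cells, at least 6.44-fold higher than in CD4 T cells by the same rule, with an exact interval that starts at 4.83-fold. Aged meninges CD8 T cells had no UMI, at least 6.54-fold lower than young ones, with an exact interval of the ratio that ends at 0.204. Without 1 cell of 12 UMIs the young meninges CD8 level was 10.5 CPM, and both of its bounds fall with it. The CD4 level of aged meninges rested on 1 cell with 9 Fcer1g and 16 macrophage gene UMIs, and that of aged choroid plexus, 27.9 CPM, on 1 cell with 20 Fcer1g and 142 macrophage gene UMIs. Without these cells both levels were 0.

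In young choroid plexus, 5 of 17 T cells with a natural killer gene UMI had an Fcer1g UMI (29.4%, exact interval 10.3 to 56.0), against 1 of 551 without such a UMI or a gamma-delta UMI (0.181%, 0.00459 to 1.01). In aged choroid plexus the shares were 6.25% (4 of 64) and 0.487% (4 of 821). Median depth was 3847 and 2948 UMIs in the first pair and 3276 and 2689 in the second. In young meninges the shares were 4.26% (2 of 47, 0.520 to 14.5) and 0.436% (4 of 917, 0.119 to 1.11). In aged meninges they were 4.26% (2 of 47, 0.520 to 14.5) and 0.239% (3 of 1255, 0.0493 to 0.697), so the intervals overlap in both meningeal libraries. Of T cells with a gamma-delta gene UMI, 2 of 33, 3 of 18, 0 of 83 and 3 of 175 had an Fcer1g UMI in the 4 libraries. Of the summed UMIs of Fcer1g and Cd247, Fcer1g made up 29.7% (23.2 to 36.9) in young choroid plexus CD8 and 8.49% (5.46 to 12.5) in young meninges CD8 T cells. It made up 6.90% in aged choroid plexus CD4 and 5.66% (3.58 to 8.44) in aged choroid plexus CD8 T cells, and at most 1.89% in the other 8 pools. These intervals take UMIs as independent and do not cover variation between cells. The 55 UMIs of young choroid plexus CD8 T cells came from 6 cells, 22 of them from 1 cell. The 23 UMIs of young meninges CD8 T cells came from 4 cells, 12 of them from 1 cell. The share in aged choroid plexus CD4 T cells rests on the 1 cell with 142 macrophage gene UMIs.

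Lck phosphorylates the receptor's tyrosine motifs and is carried by the CD4 and CD8 coreceptors. Its level was 704, 581 and 644 CPM in CD4, CD8 and neither T cells of young meninges, and 531, 443 and 585 in young choroid plexus. In the aged meninges it was 541, 577 and 552 CPM, and in the aged choroid plexus 536, 566 and 507. With age the log2 ratio was -0.37 in meningeal CD4, -0.22 in meningeal neither, -0.20 in choroid plexus neither and 0.35 in choroid plexus CD8 T cells, each with an interval that excluded 1. These values point both ways, and no comparison of Lck between the pools of an age, class or tissue passed the rule of size. Within cells with a Ccr7 UMI, 1 of 6 comparisons of age passed as lower (values -0.54 to 0.30), against 7.33 to 12% of all genes. Between cells without and with a Ccr7 UMI, 1 of 12 pools passed as lower (-0.50 to 0.47), against 6.12 to 17.5%. At 1000 UMIs drawn from each cell, 1 of 6 comparisons of tissue passed as lower. Lck overlaps the annotated gene Mir8119 on the same strand.

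Zap70 encodes the kinase that docks on phosphorylated CD3 and zeta chains. In the young meninges it had 155, 116 and 154 CPM in CD4, CD8 and neither T cells, and in the young choroid plexus 89.1, 93.3 and 96.2. The aged meninges had 181, 159 and 131 CPM and the aged choroid plexus 129, 125 and 129. With age the log2 ratios of Zap70 were -0.22 to 0.48, positive in 5 of 6 comparisons, and 3 intervals lay above 1. None passed the rule of size. Under TMM, 1 interval lay above 1 and 1 below. Zap70 was lower in choroid plexus than in meninges in young CD4 (log2 ratio -0.74, interval of the ratio 0.399 to 0.810) and young neither T cells (-0.63, 0.476 to 0.811). In the other 4 comparisons of tissues the values were -0.02 to -0.46. Zap70 overlaps the annotated gene Gm18828 on the opposite strand, with the uncertainty given for Cd3e. Without Fcer1g, these were the only 2 of 54 values of the comparison of tissues that passed. Of all genes tested, 9.96, 10.1 and 9.53% passed between tissues in young CD4, CD8 and neither T cells, and 8.07, 7.84 and 7.71% in the aged. Fcer1g was called higher in choroid plexus in young CD8, aged CD4 and aged CD8 T cells, on the cells described above.

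Txk encodes a Tec-family kinase of T cells that acts close to the receptor, and it had the widest span of the genes present in every pool. In young meninges its level was 170 CPM (144 to 200) in CD4, 153 (131 to 179) in CD8 and 189 (168 to 213) in neither T cells. In young choroid plexus it was 128 (98.1 to 163), 153 (124 to 187) and 151 (125 to 181). Aged meninges had 45.4 (33.3 to 60.6), 83.3 (65.5 to 104) and 68.8 (57.0 to 82.2) CPM, and aged choroid plexus 29.3 (18.2 to 44.8), 67.8 (56.1 to 81.2) and 50.3 (37.2 to 66.5). All 6 aged pools lay below all 6 young pools, and in the aged libraries CD4 T cells were the lowest.

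**Figure D3:**
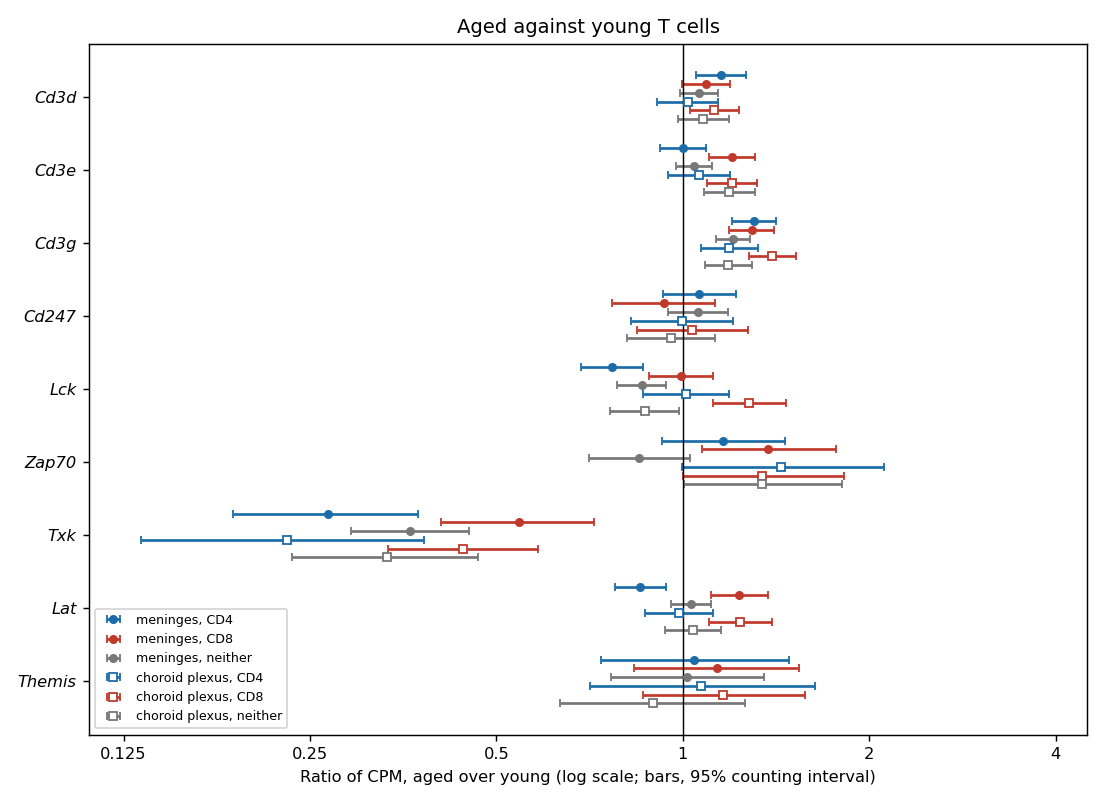
Ratio of CPM, aged over young (horizontal axis, log scale), for 9 of the genes (vertical axis), with 95% counting intervals. Filled symbols are meninges and open symbols choroid plexus, in blue for CD4, red for CD8 and grey for neither T cells. Fcer1g is not drawn because it was at 0 in some pools. All 6 intervals of Txk lie below 1 and all 6 of Cd3g above 1.

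Txk was lower with age in all 6 comparisons. In meninges its log2 ratio was -1.70 in CD4, -0.81 in CD8 and -1.34 in neither T cells, and in choroid plexus -1.81, -1.07 and -1.42. The background of the rule, as the percent of all genes tested that passed it in either direction, was 17.2, 16 and 18.4% in meninges and 16.6, 12.4 and 15.4% in choroid plexus in the same order. Those called lower were 5.93, 5.57, 7.05, 5.01, 4.08 and 4.92%. Of the other 8 genes without Fcer1g, none of 48 values passed. Fcer1g passed as lower in CD8 T cells of both tissues and as higher in choroid plexus CD4 T cells, on the few cells described above. Median log2 ratios over the tested members were 0.04 to 0.23, and over all tested genes 0.03 to 0.11. Of the genes past the rule, 61.6 to 69.9% were higher with age, and 48.8 to 54.6% under TMM, which did not change the call of Txk.

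The share of cells with a Txk UMI was 42.0% of young and 10.2% of aged meninges CD4 T cells at full depth. After drawing 1000 UMIs from each cell it was 17.7% (13.2 to 23.0) and 5.06% (3.02 to 7.87). For choroid plexus CD8 T cells the full-depth shares were 42.0% and 19.0% and the thinned shares 14.2% and 6.94%. Median depths of these 4 pools were 3214, 2329, 3460 and 3133.5 UMIs. No T-cell pool can serve as a population that lacks Txk, so the share from free RNA was not measured.

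**Figure D4:**
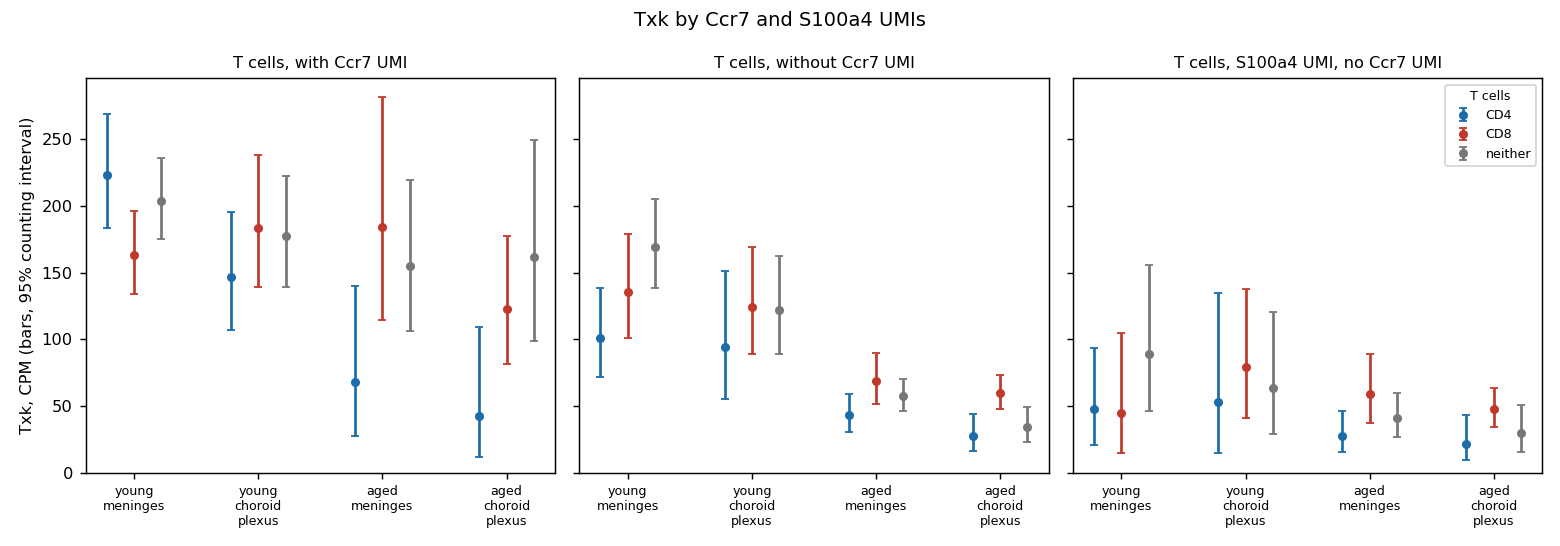
Txk level (vertical axis, CPM, with 95% counting intervals) by library and class, in T cells with a Ccr7 UMI (left), without one (middle), and with an S100a4 but no Ccr7 UMI (right). Without a Ccr7 UMI the young pools had 94.5 to 169 CPM and the aged pools 27.3 to 68.6.

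Txk also moved with cell state. Its value was smaller in cells without than with a Ccr7 UMI in all 12 pools, and past the rule of size in 5 of them, against the background of 6.12 to 17.5% given for Cd3g. In young meninges CD4 T cells it was 101 CPM without and 223 with a Ccr7 UMI, and in aged choroid plexus neither T cells 34.1 and 162. Within cells that lack a Ccr7 UMI, Txk was lower with age in all 6 comparisons, by log2 ratios of -0.89 to -1.58, while 10.9, 12.4 and 13.5% of all genes passed in CD4, CD8 and neither T cells of meninges and 9.88, 7.89 and 11.1% in those of choroid plexus. Within cells with a Ccr7 UMI it was lower in both CD4 comparisons (-1.58 in meninges and choroid plexus alike), and the other 4 values were -0.55 to 0.17, against 10.1, 7.33, 9.27, 11.1, 11.1 and 12% of all genes in the same order. Here the aged pools held 24 to 69 cells each. In cells with an S100a4 UMI and none of Ccr7 the log2 ratios were -0.98 to 0.33, 5 of 6 had enough UMIs for the rule, and none passed, against 9.54, 14.6, 8.43, 8.34, 6.58 and 8.79% of all genes. The young pools held 17 to 39 such cells each. A cell without a Ccr7 UMI can still express the gene at these depths, so the split is not a clean one of naive and memory cells.

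In CD8 over CD4 T cells the log2 ratio of Txk was 0.75 (interval of the ratio 1.25 to 2.71) in aged meninges and 0.98 (1.44 to 3.87) in aged choroid plexus, and -0.14 and 0.25 in the young libraries. The same 2 aged libraries passed within cells without a Ccr7 UMI, at 0.57 and 0.89. In neither over CD4 T cells it was 0.51 and 0.62 in the aged libraries, close to the limit of 0.5, and 0.15 and 0.23 in the young. The difference between the ages in these ratios was not tested. Txk (ENSMUSG00000054892) lies at chr5:72695978-72752777 on the minus strand, and Gm43717 overlaps it on the opposite strand. Treml2 (r = 0.974) and Tbxa2r (0.95) were among the 3 genes whose level over the 12 pools was most like that of Txk. Treml2 had 0 to 35.9 CPM and Tbxa2r 9.88 to 50.6, so their lowest values are no larger than the 10 CPM added. As for Cd247, these values are descriptions.

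Txk was lower in the aged pool of every class and tissue, along with the shift in cells with a Ccr7 UMI. For this reason the promoter of Txk at its annotated start is shown. It spans chr5:72752728-72753027 on the minus strand of GRCm38.p6, from RefSeq, with the ETS core in capitals as before.
Txk promoter: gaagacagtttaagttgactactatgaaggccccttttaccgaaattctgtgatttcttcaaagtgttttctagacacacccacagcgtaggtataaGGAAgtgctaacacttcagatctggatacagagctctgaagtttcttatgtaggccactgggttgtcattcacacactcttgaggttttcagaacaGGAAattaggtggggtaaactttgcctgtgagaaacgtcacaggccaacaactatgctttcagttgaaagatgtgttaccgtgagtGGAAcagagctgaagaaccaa
The ETS core occurred 3 times in it, the median over all promoters, and 66.3% of promoters held it at least as often. CACCC and CTTTGA occurred 1 time each, and 57.5% and 16.0% of all promoters held them.

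Lat encodes the adaptor that Zap70 phosphorylates, and it overlaps the annotated gene Mir7058 on the same strand. In young meninges it had 994 CPM in CD4, 631 in CD8 and 849 in neither T cells, and in young choroid plexus 871, 592 and 814. In aged meninges the levels were 848, 778 and 874 CPM and in aged choroid plexus 858, 732 and 846. The CD8 pools were again the lowest of each library, by a wider margin in the young. Lat was lower in CD8 than in CD4 T cells of young meninges (log2 ratio -0.65, interval of the ratio 0.573 to 0.703) and young choroid plexus (-0.55, 0.590 to 0.782), while the values in the aged libraries were -0.12 and -0.23. Under TMM the 4 values were -0.49 to 0.05 and none passed, so the call of Lat depended on the scaling. The difference between the ages was not tested. Among cells with a Ccr7 UMI, Lat was lower in CD8 than in CD4 T cells in 3 of the 4 libraries (log2 ratios -0.62 to -0.12). Without a Ccr7 UMI it was lower in 1 of 4 (-0.72 to -0.07). In cells with an S100a4 UMI and none of Ccr7 it was lower in 1 of 4 (-0.95 to 0.08). The background in these states is that given for Cd247.

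**Figure D5:**
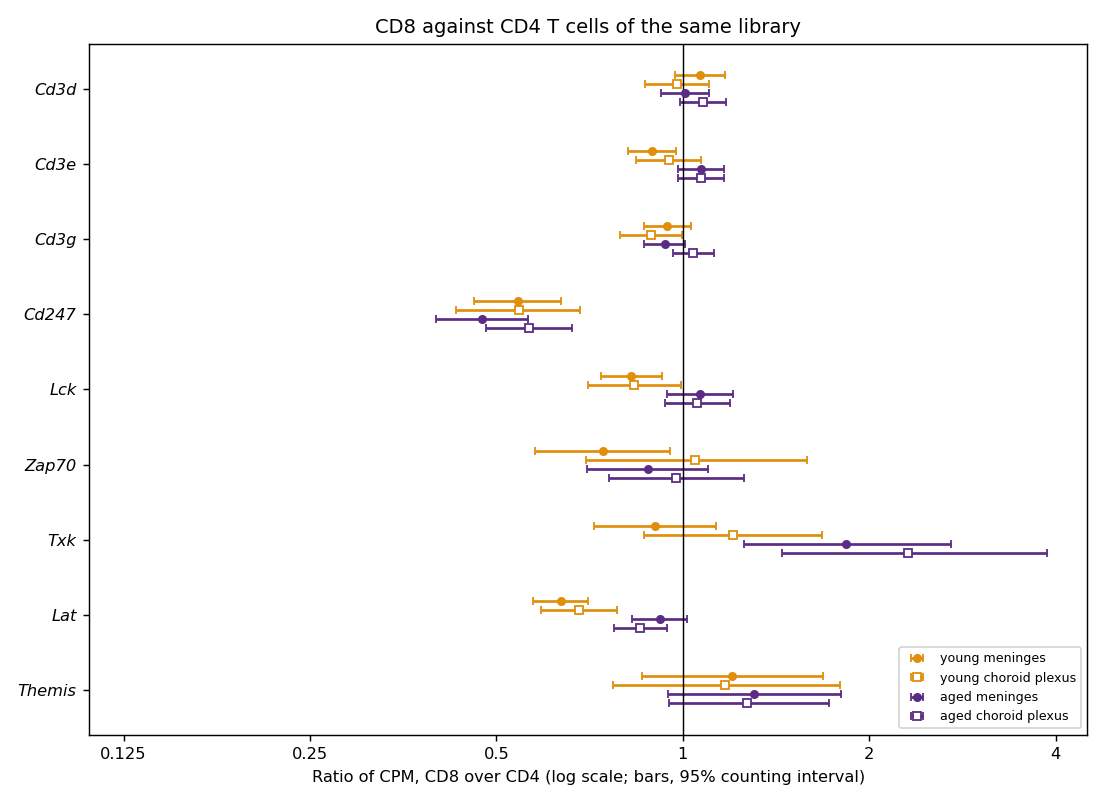
Ratio of CPM, CD8 over CD4 T cells of the same library (horizontal axis, log scale), for 9 of the genes (vertical axis), with 95% counting intervals. Orange is young and purple aged, with circles for meninges and squares for choroid plexus. The 4 intervals of Cd247 lie below 1, and those of Txk lie above 1 in the aged libraries only.

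Counted over CD8 against CD4 T cells, 3, 3, 2 and 3 of the 10 genes passed in the 4 libraries, where 11.3, 9.89, 12.8 and 11.8% of all genes tested did. Without Fcer1g, 6 of 36 values passed as lower (4 of Cd247 and 2 of Lat) and 2 as higher (Txk in the aged libraries). Median log2 ratios of the tested members were -0.15, -0.05, 0.01 and 0.07, and those of all tested genes -0.12, -0.08, -0.13 and -0.08. Between neither and CD4 T cells, Txk in the aged libraries and Fcer1g in aged choroid plexus passed and nothing else, where 4.39, 3.74, 4.66 and 4.84% of all genes did.

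Themis, whose product acts with Lck at the receptor and is best known from thymocyte selection, had 63.2 to 110 CPM. It overlaps Gm47834 and 4930519F09Rik on the opposite strand, with the same uncertainty. Its log2 ratio of CD8 over CD4 T cells was 0.21 to 0.34 in the 4 libraries, and that of choroid plexus over meninges 0.14 to 0.38 in 6 comparisons. No interval of these 10 values excluded 1, and none passed the rule of size.

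Of 53 other genes of proximal T-cell receptor signalling, 47 to 51 had enough UMIs in a given comparison. With age, 4 of 49 rose past the rule and 6 fell in meningeal CD4 T cells, 5 and 3 of 49 in meningeal CD8 T cells, and 9 and 6 of 50 in meningeal neither T cells. In choroid plexus 13 rose and 4 fell of 48 in CD4, 7 and 3 of 50 in CD8, and 10 and 3 of 49 in neither T cells. Over all genes tested, 17.2, 16 and 18.4% passed in the 3 meningeal comparisons and 16.6, 12.4 and 15.4% in those of choroid plexus. Under TMM the pathway genes that rose and fell were 4 and 8, 3 and 5, and 8 and 7 in meninges, and 9 and 7, 6 and 3, and 7 and 7 in choroid plexus. The excess of rising genes in choroid plexus CD4 and neither T cells thus depended on the scaling, and that in meningeal CD8 T cells turned to an excess of falling genes. Dgka, a diacylglycerol kinase that limits signalling below Lat, was lower in all 6, by log2 ratios of -0.75 to -1.45. It fell from 290 to 136 CPM in meningeal CD4 T cells and from 187 to 79.9 CPM in choroid plexus CD8 T cells. Tec, another kinase of the family of Txk, was lower in the 3 choroid plexus comparisons (-0.95 to -1.17), and the values in meninges were -0.38 to 0.08. The phosphatase gene Ptpn7, the transcription factor gene Nfatc1 and the adaptor gene Grb2 each were higher in 4 of 6 comparisons, with values of 0.20 to 1.12, 0.41 to 1.14 and 0.06 to 1.60 over all 6. The adaptor gene Dok1 was higher in 3 of 6. Under TMM, Dgka was lower in all 6 and Grb2 higher in 4, Ptpn7 and Nfatc1 in 3 each and Dok1 in 2.

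In CD8 against CD4 T cells the other pathway genes leaned to lower, as all genes did, with a larger share called lower in each library. In the order of libraries used before, 13, 10, 14 and 13 were lower and 2, 2, 1 and 2 higher, of 48, 48, 49 and 50 tested. Of all 7131, 5410, 7348 and 8047 genes tested, 641, 339, 735 and 675 were lower and 162, 196, 204 and 276 higher. In either direction 11.3, 9.89, 12.8 and 11.8% of all genes passed. Under TMM the share of all passing genes that was higher went from between 20.2 and 36.6% to between 45.3 and 52.8%. The pathway genes then numbered 8, 9, 8 and 6 lower and 3, 2, 4 and 4 higher. Cd5 was lower in all 4 libraries, by log2 ratios of -1.03 to -1.51, for example at 68.2 CPM in CD8 and 211 in CD4 T cells of young meninges. Cd28, the costimulatory receptor gene, was lower in all 4 (-0.52 to -1.27) but in 2 under TMM, and Trat1, whose product binds CD3 zeta, in 3 of 4 (-0.50 to -1.06 over all 4). Cd5 and Trat1 kept these counts under TMM. Tyrobp, which encodes the related adaptor DAP12, passed in both directions, and it was present in 12 of the 27 cells with an Fcer1g UMI.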

How the data were processed

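The authors sorted T cells from pooled mice, made 5′ libraries (10x Genomics) and deposited raw counts of UMIs per gene and cell, not normalized. The labels name Cell Ranger 5.1.0, STAR and mm10, while the file headers give Cell Ranger 3.1.0. Annotation and strand use are not given in the sources used here. The files held 4801 cells, 718 to 1695 per library, and 2295950 to 4262917 UMIs per library.

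Cells with 200 to 7000 genes and at most 5% mitochondrial UMIs were kept, as in the study. Scrublet (scanpy 1.11.5) marked 16, 22, 0 and 5 doublets in the libraries, in the order of the text. None was marked in aged meninges, so doublets can remain there, and no doublet removed and the top 5% of scores removed were alternatives. UMIs were summed per library and class, scaled to CPM, and compared as log2(CPM + 10). No test was made, since cells are not replicates. Intervals are exact (Poisson, binomial, conditional binomial), at 95%. Bounds against 0 use 3 counts per pool. Cells were thinned by drawing 1000 UMIs. TMM factors came from edgeR 4.0.16.

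The genes, lists, gates and rules were chosen with earlier results of these data known. Genes named beyond the 10 are those of the pathway list past log2 1 in the most comparisons (at most 4 each way for age and class) and the 3 most alike over 12 pools for members spanning 2-fold, with at least 200 UMIs. Of these, 1 gene is not reported here, and those like Fcer1g are not given because it rests on 27 cells. Alternatives varied scaling, pseudocount (1 and 50), the minimum of UMIs, gates, doublets and limits on cells. They also left out cells with UMIs of marker genes of other cell types or of gamma-delta genes. Added after seeing the data were the minimum of 10 cells for a call, the S100a4 split and the Fcer1g levels without the top cell. Positions are from GENCODE vM21 (30934 of 31053 identifiers matched) and promoters from RefSeq.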

Additional observations from a re-analysis of the deposited data

Results flagged for a closer look

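A few effects pointed in opposite directions in 2 groups, each with an interval that excluded no change. None of these differences was tested. The log2 ratio of Fcer1g with age was higher in CD4 than in CD8 T cells by 2.59 in meninges (0.92 against -1.67) and by 4.02 in choroid plexus (1.92 against -2.09), and CD8 against CD4 differed by the same 2.59 and 4.02 between the young and the aged libraries. These values depend on the 10 CPM added to pools at 0, and the CD4 values of the aged libraries rest on 1 cell each. The log2 ratio of Lck with age was 0.549 higher in choroid plexus CD8 than in neither T cells (0.35 against -0.20). For Lat in meninges the value was -0.23 among CD4 and 0.30 among CD8 T cells, a difference of -0.525.

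Cells that entered no comparison also held counts of the genes. In the 77 cells with no T-cell receptor UMI (median depth 1676 UMIs) the levels were 511 CPM of Cd3d, 706 of Cd3e, 656 of Cd3g, 221 of Cd247, 63.0 of Fcer1g, 340 of Lck, 69.3 of Zap70, 44.1 of Txk, 523 of Lat and 69.3 of Themis, and 55 of these cells had a CD3 chain UMI. In the 97 T cells with both Cd4 and Cd8 UMIs (median depth 4329) they were 1090 CPM of Cd3d, 1080 of Cd3e, 1380 of Cd3g, 346 of Cd247, 517 of Lck, 151 of Zap70, 83.5 of Txk, 746 of Lat and 85.5 of Themis.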

How the results depend on the processing

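With 1 library per condition, no library could be left out and all intervals cover counting error only. No paired analysis was possible because the result comes from no test and each group holds 1 library. Under 16 alternatives, 277 of 320 counts of passing members stayed within 1.5 times. The counts are small, those where no member passed in either setting are included, and an unchanged count can come from different genes. Thinning to 1000 UMIs per cell also lowered the calls over all genes. With age they went from 833 higher and 439 lower to 398 and 207 in meningeal CD4 T cells. In choroid plexus CD8 T cells they went from 644 and 317 to 259 and 128. Txk with age kept its direction in all 90 alternative values and passed in 89 (-0.61 to -2.09; the exception, at -1.88, was choroid plexus CD4 T cells with 2 UMIs for a class call), and Cd247 in CD8 against CD4 in all 60 (-0.65 to -1.26). Lat in CD8 against CD4 passed in 25 of 30, Zap70 between tissues in 26 of 30, Txk in CD8 against CD4 in 28 of 30 and in neither against CD4 in 14 of 30. TMM moved the median over all genes by up to 0.13 and leaving out ribosomal and receptor genes by up to 0.11. Fcer1g reversed in aged choroid plexus, to 1.26 (CD8 against CD4) and 0.39 (neither against CD4) with 2 UMIs for a class call, and to 1.22 and 0.42 without cells that hold UMIs of B cell, macrophage, mast cell or neutrophil genes, both of which leave out the cell with 142 macrophage UMIs.

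The counts that moved were small. Requiring a UMI in at least 10 cells, added after seeing the data, removes Fcer1g. It left 1 of 2 in 3 comparisons of age (meninges CD8, both choroid plexus CD4 and CD8) and in neither against CD4 in aged choroid plexus, and 0 of 1 in 3 of tissue (young CD8, aged CD4 and CD8). Thinning left 1 of 2 for age in meninges CD8 and choroid plexus CD4 and for CD8 against CD4 in aged meninges, gave 1 where the main value was 0 in neither against CD4 in young choroid plexus, and 0 for that comparison in both aged libraries and for tissue in aged CD4 and CD8. A pseudocount of 50 left 1 of 2 for CD8 against CD4 in aged meninges and neither against CD4 in aged choroid plexus, and 0 of 1 in neither against CD4 in aged meninges and in 3 comparisons of tissue. With 2 UMIs for a class call, age gave 1 of 2 in meninges CD8 and 0 of 2 in choroid plexus CD4, neither against CD4 in aged choroid plexus 0 of 2, and tissue in aged CD4 2 against 1. Leaving out cells with other cell types' UMIs gave 1 of 2 for age in choroid plexus CD4, 0 for neither against CD4 in both aged libraries and for tissue in aged CD8, and 2 against 1 for tissue in young CD4 and young neither. Leaving out cells with a UMI of a gamma-delta gene gave 1 of 2 for age in meninges CD8 and 0 of 1 for tissue in aged CD8. The mean of each cell's CPM gave 0 of 1 for neither against CD4 in aged meninges and for tissue in young CD4. Neither against CD4 gave 1 of 2 in aged choroid plexus with the CD3 gate, no gate, no doublet removed, the top 5% removed and no mitochondrial limit, and 0 of 1 in aged meninges with no gate and the top 5% removed. With no minimum of UMIs, age in meninges CD4 gave 2 against 1. The cause was not tested beyond these constructions.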
